A study of Gallus gallus with 9 samples.

Results

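The transcripts described here are those of the nuclear genes for the respiratory chain and ATP synthase of mitochondria, measured in chick retina, in the layer that holds the amacrine cells, interneurons of the inner retina. The members were chosen by name: chicken probe sets whose only platform gene symbol began with NDUF, SDHA, SDHB, SDHC, SDHD, UQCR, COX4, COX5, COX6, COX7, COX8, CYC1, CYCS or ATP5. The rule used no measured value and gave 143 probe sets of 79 genes, among 37693 chicken probe sets and 12958 genes with a symbol of their own on an Affymetrix Chicken Genome array. Chicks wore a lens of -7 D over 1 eye for 24 h (minus lens, described by the labels as stimulating eye growth) or a lens of 7 D for 24 h (plus lens, described as suppressing it), and untreated chicks matched for age were the controls. The light was on for 12 h a day, at 500 lux, and neither age, strain nor sex is given in the labels. Laser capture took the layer out of 10 µm sections, and 10 to 100 ng of RNA was amplified in a pair of labelling cycles for each of 9 arrays, 3 per group. The labels give 3 chicks per condition but do not tie a chick to an array, so the p-values reflect only how much these samples vary, and part of that variation may be technical.

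The respiratory chain passes electrons from NADH (through complex I) or from succinate (through complex II) to ubiquinone, then through complex III and cytochrome c to complex IV, which reduces oxygen. Complexes I, III and IV pump protons across the inner mitochondrial membrane, and ATP synthase, complex V, lets them flow back to make ATP. Retinal neurons spend much of that ATP on pumping ions after synaptic and light-driven currents, and the inner plexiform layer, where amacrine cells make their synapses, is rich in mitochondria. The chain is built from nuclear and mitochondrial genes, and the list of mitochondrially encoded subunits had 0 probe sets under those symbols in the table used here.

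Values are log2 of the deposited intensity, a scale on which 1 unit is a doubling of signal, and the signal of a probe set is not comparable with that of another. Of the 143 member probe sets, 92 of 73 genes had a signal of log2 4 or more on 3 or more of the 9 arrays, the condition for being tested. The other 51 had a median signal of 2.78 and a highest single value of 4.58, and 44 of them never reached log2 4. NDUFAF4, SDHAF1, COX7B, ATP5G2, ATP5J and ATP5S were measured by such dim probe sets alone. CYC1, SDHB and SDHC had no member probe set. Of the 143, 142 were found in the RefSeq gene table by Entrez number, and NDUFB7 was not.

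A pair of arrays, both of the minus lens group, stood apart. Minus lens replicate 3 had a mean correlation of 0.953 with the other arrays across probe sets, against 0.971 to 0.975 for the rest, and its spiked hybridisation controls averaged 13.17 against 11.53 to 12.19. Over all 12975 tested probe sets its mean lay 0.13 below the control mean. Minus lens replicate 1 differed in genes of chromosome W: HINTW stood at 13.07 there and at 2.32 to 2.37 on the other 8 arrays, and 14 of the 39 probe sets that the RefSeq table places on W reached log2 4 on that array alone. The 5 W probe sets that passed the filter, of NEDD4L and UBAP2L2, had signal on the other arrays too and were not higher on that one. In birds the W chromosome is carried by females, which have 1 Z, and males have a pair of Z chromosomes. Of 471 tested probe sets on chromosome Z, 55.2% were lowest on minus lens replicate 1, against 6.80% of 9423 tested probe sets on other chromosomes. The count of higher members and the medians by complex under the minus lens are therefore given with and without each of these arrays. The same holds for the minus lens medians of most gene lists. Of 28 amacrine markers listed, 20 passed the filter, from GAD1, which makes the transmitter GABA (14.07 to 14.38 over the 9 arrays), to CHAT, which makes acetylcholine (2.5 to 6.71). Müller glia genes had signal as well, GLUL at 12.38 to 14.06, so these levels do not tell which cells were captured.

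Minus lens wear was compared with no lens to ask how the layer's transcripts differ when eye growth is stimulated. No member passed: 0 of 92 had an adjusted p under 0.05 in limma, where 0.00771% of all tested probe sets did, and the smallest adjusted p of a member was 0.670. The members leaned upward without passing. Their mean was higher under the minus lens for 72 and lower for 20, a share of 78.3% higher against 44.1% of all tested probe sets. The median log2 difference over members was 0.15 and that over all tested probe sets was -0.03, and 54 of the 92 differed by less than 0.2 in size. All 3 minus lens arrays lay above all 3 controls for 8 members (8.70%, against 4.34% of all tested probe sets) and below them for 2 (2.17%, against 5.67%). At an unadjusted p under 0.05 there were 6 higher members (against 2.93% of all tested probe sets) and 1 lower member (against 4.10%). Together these 7 members were 7.61% of the 92, close to the 7.03% of all tested probe sets.

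The lean was carried by minus lens replicates 1 and 2 and not by replicate 3. Averaged over the 92 members and set against the control mean, the control arrays stood at -0.03, 0.14 and -0.11, the plus lens arrays at 0.06, 0.05 and -0.01, and the minus lens arrays at 0.26, 0.19 and -0.09. The minus lens and control groups therefore overlapped, with replicate 3 among the low controls. Over all tested probe sets the minus lens arrays stood at 0.01, -0.01 and -0.13, so replicate 3 was low as a whole array. Minus lens replicate 1 was the highest of the 9 arrays for 35 members and replicate 2 for 23, whereas replicate 3 was the lowest for 27 of the 92 and control replicate 3 for 23. Over all tested probe sets, minus lens replicates 1 and 2 were the highest for 14.3% and 11.3%, minus lens replicate 3 was the lowest for 29.4%, as often as among the members, and control replicate 3 was the lowest for 7.45%. Without minus lens replicate 3 the median difference was 0.25 and 81 members were higher, and without replicate 1 or 2 it was 0.06 or 0.09 with 62 or 64 higher. Without control replicate 3 it was 0.09, with 59 higher. Leaving out replicate 3 also put 35 members (38.0%) above all controls, where 10.8% of all tested probe sets were, and 2 (2.17%) below them, where 9.47% were. It put 18 at an unadjusted p under 0.05 in the higher direction, where 4.25% were, but 0 passed after adjustment (smallest adjusted p = 0.423 in limma). Without replicate 1 instead, 9 members (9.78%) lay above all controls, close to the 9.19% of all tested probe sets. Below them lay 6 (6.52%), where 14.7% of all tested probe sets did. At an unadjusted p under 0.05 in limma there were then 5 higher members (5.43%, against 3.38%). Without replicate 2 the members above all controls were 14 (15.2%, against 8.16%).

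**Figure D1:**
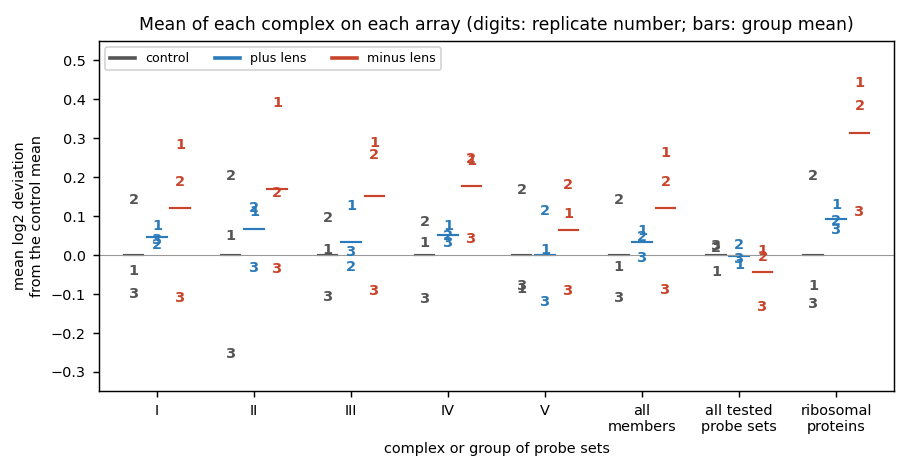
Mean log2 deviation from the control mean on each of the 9 arrays, for each complex, all 92 tested members, all 12975 tested probe sets and 59 cytosolic ribosomal protein genes (digits are replicate numbers and bars are group means). Minus lens replicates 1 and 2 stood at 0.26 and 0.19 over all members, and replicate 3 at -0.09, within the range of the controls.

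Complex I, the NADH dehydrogenase, is the largest member of the chain, and 43 tested probe sets covered 33 subunit genes. Under the minus lens 35 of the 43 had a higher mean than the controls, with a median difference of 0.15 (0.08 without minus lens replicate 1 or 2 and 0.26 without replicate 3). Among the subunits of the peripheral arm, NDUFV2, an iron-sulphur protein of the NADH-binding end, stood at 7.15, 7.49 and 7.38 in the controls, 7.51, 7.34 and 7.51 under the plus lens and 7.63, 7.77 and 7.72 under the minus lens. Each minus lens array lay above every other array, by a mean of 0.36 over the controls (SE 0.13, adjusted p = 0.683 in limma). Its partner NDUFV1, which carries the flavin, differed by 0.06 and NDUFS1, a large iron-sulphur subunit, by 0.08 and 0.04 at its pair of tested probe sets. NDUFS7 and NDUFS8, iron-sulphur subunits near the quinone site, differed by 0.09 and 0.19. NDUFS3, also of the quinone end, had the highest difference of any member, 0.66 (SE 0.56), which rested on 1 array. It stood at 7.07 on minus lens replicate 3 and at 4.57 to 4.94 on the other 8, and the difference was -0.15 without that array.

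Among the accessory subunits of complex I, NDUFA12 stood at 10.52, 10.51 and 10.64 in the controls, 10.43, 10.54 and 10.24 under the plus lens and 10.87, 10.79 and 10.79 under the minus lens. The minus lens arrays were the 3 highest of the 9, with a difference of 0.26 from the controls (SE 0.10, adjusted p = 0.683 in limma). NDUFB3, of the membrane arm, was read by 3 tested probe sets that disagreed. The brightest stood at 7.94, 8.05 and 7.93 in the controls, 7.85, 7.79 and 7.97 under the plus lens and 8.27, 8.19 and 8.38 under the minus lens, a difference of 0.31 from the controls (SE 0.11, adjusted p = 0.683 in limma). The next differed by 0.30 and its groups overlapped. The dimmest stood at 4.41, 4.21 and 4.21 in the controls, 4.42, 4.34 and 4.48 under the plus lens and 4.0, 3.78 and 3.36 under the minus lens, a difference of -0.56 (SE 0.16, adjusted p = 0.670). This probe set was lowest in the minus lens group, unlike the other NDUFB3 probe sets, and lay at the edge of the filter. NDUFB5, another membrane arm subunit, likewise had every minus lens array above every control, with 8.99, 8.66 and 8.60 against 8.59, 8.37 and 8.21.

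The remaining subunits of complex I differed from the controls by -0.19 (NDUFS4) to 0.32 (NDUFA11, dimmer probe set). NDUFC2, NDUFA13 (brighter probe set) and NDUFV3 had 0.30, 0.28 and 0.25, all with overlapping groups. NDUFA9 had 0.26 at its dimmer probe set, or 0.08 without minus lens replicate 3, and -0.01 at its brighter one, with overlapping groups at both. NDUFS6, with the brightest tested probe set of the complex, differed by -0.02 there and by 0.04 at its other tested probe set. NDUFAB1, the mitochondrial acyl carrier protein, differed by -0.01, and NDUFA8 by -0.05. NDUFA1 and NDUFA7 showed how much replicate 3 counted: NDUFA1 stood at 9.70 and 9.61 on minus lens replicates 1 and 2 and at 8.54 on replicate 3, with controls at 8.90 to 9.20. NDUFA7, at one of its probe sets, stood at 7.13 and 6.91 on replicates 1 and 2 and at 5.59 on replicate 3, with controls at 6.49 to 6.56. Of the 7 tested assembly factors of complex I, which help to build it and are not part of it, 4 were higher and 3 lower, with a median of 0.00. That median was -0.08 with 3 higher without minus lens replicate 1, and 0.27 with 7 higher without replicate 3. NDUFAF7, which in mammals methylates a core subunit, differed by 0.38 and NDUFAF3 by -0.20 (4.96 on minus lens replicate 3 against 5.74 to 6.63 in the controls).

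Complex II, succinate dehydrogenase, also belongs to the citric acid cycle. SDHA, its flavoprotein, stood at 9.04, 9.46 and 9.47 in the controls, 9.81, 9.56 and 9.37 under the plus lens and 9.57, 9.61 and 9.39 under the minus lens. The groups overlapped, and the minus lens mean was 0.20 higher than that of the controls (SE 0.16, adjusted p = 0.794 in limma). SDHD, a membrane anchor, differed by 0.17. The assembly factors SDHAF2, SDHAF3 and SDHAF4 filled the other 5 tested probe sets of complex II and differed by -0.18 (SDHAF3) to 0.49 (SDHAF4), with the SDHAF4 value resting on a low control replicate 3, at 6.63 against 8.41 and 8.54. Over the 7 tested probe sets of complex II the median was 0.17, with 6 higher. It was 0.14 without minus lens replicate 1, 0.15 without replicate 2 and 0.27 without replicate 3.

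Complex III, the cytochrome bc1 complex, had 9 tested probe sets, 7 of them higher under the minus lens, with a median of 0.17 (0.05 without minus lens replicate 1, 0.13 without replicate 2 and 0.33 without replicate 3). UQCRHL, named for its likeness to the hinge protein UQCRH that contacts cytochrome c1, stood at 9.07, 9.12 and 8.62 in the controls, 9.12, 8.91 and 9.12 under the plus lens and 9.45, 9.44 and 9.26 under the minus lens. Every minus lens array was above the other 6, with a difference of 0.45 from the controls (SE 0.15, 1.37-fold, adjusted p = 0.683 in limma), which was 0.29 without control replicate 3. The small subunit UQCR11 differed by 0.26. UQCRC1 and UQCRC2, the core proteins, differed by 0.04 and -0.04, and UQCRFS1, the Rieske iron-sulphur protein, by 0.24. The dimmest, UQCRB, differed by -0.13.

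Cytochrome c, the soluble carrier between complexes III and IV and a trigger of cell death when released, was read by 2 tested probe sets of CYCS. The brighter stood at 7.37, 7.84 and 7.43 in the controls, 7.29, 7.32 and 7.26 under the plus lens and 7.76, 7.09 and 7.32 under the minus lens. The dimmer stood at 6.46, 6.65 and 6.46 in the controls, 6.07, 6.91 and 5.84 under the plus lens and 7.16, 6.46 and 6.12 under the minus lens. Both were highest in the minus lens group on replicate 1, and the minus lens differences from the controls were -0.15 and 0.06. Without replicate 1 the median of this pair was -0.28, against -0.05 with it.

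Complex IV, cytochrome c oxidase, had the highest median of the 5 complexes under the minus lens, 0.28, with 7 of 9 probe sets higher. The median was 0.17 without minus lens replicate 1, 0.22 without replicate 2 and 0.38 without replicate 3. NDUFA4, a subunit long assigned to complex I and since placed in complex IV, stood at 9.85, 9.71 and 9.28 in the controls, 9.89, 9.32 and 9.75 under the plus lens and 10.19, 10.23 and 10.01 under the minus lens. All 3 minus lens arrays lay above the other 6, and the difference from the controls was 0.53 (SE 0.19, 1.44-fold, adjusted p = 0.683 in limma), or 0.36 without control replicate 3. COX4I1, the nuclear subunit through which ATP tunes the enzyme in mammals, stood at 10.99, 11.08 and 10.78 in the controls, 11.11, 11.08 and 11.01 under the plus lens and 11.31, 11.38 and 11.13 under the minus lens. It too was highest on the minus lens arrays, by 0.32 over the controls (SE 0.11, 1.25-fold, adjusted p = 0.683 in limma). COX5A, COX6A1 and COX8A differed by 0.30, 0.28 and 0.31 with overlapping groups. COX7A2L, which helps to join complexes III and IV in mammals, differed by 0.21.

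The lower probe sets of complex IV were that of COX7C on chromosome Z (-0.16, or 0.10 without minus lens replicate 1) and the dimmer of COX6C. The pair of COX6C probe sets went opposite ways. The brighter stood at 10.29, 10.23 and 9.95 in the controls and 10.52, 10.53 and 10.12 under the minus lens, a difference of 0.23 with overlapping groups. The dimmer stood at 6.24, 6.44 and 6.58 in the controls, 6.14, 6.71 and 6.03 under the plus lens and 6.18, 6.02 and 5.76 under the minus lens. All 3 minus lens arrays lay below the controls there, with a difference of -0.43 (SE 0.21, adjusted p = 0.725 in limma). Of 17 genes with several tested members, 6 had minus lens differences of opposite sign, and NDUFB3 and COX6C were the 2 whose probe sets then lay over 0.5 apart (gaps of 0.87 and 0.67). The median gap over the 17 genes was 0.15, as large as the median difference over the members.

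**Figure D2:**
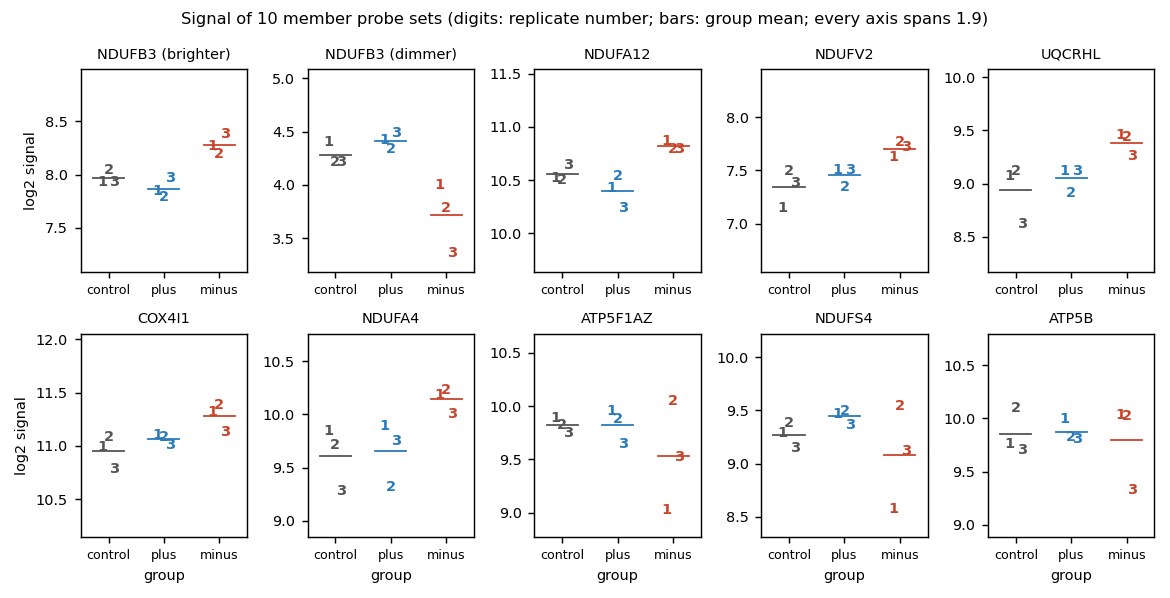
Log2 signal of 10 member probe sets on each array by group (digits are replicate numbers, bars are group means, and every axis spans the same range). NDUFB3 appears once with its brighter and once with its dimmest probe set, the latter at 3.36 to 4.0 under the minus lens, while ATP5F1AZ and NDUFS4 were lowest on minus lens replicate 1.

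Complex V, ATP synthase, had the lowest median of the 5 complexes, 0.05, although 12 of its 15 tested probe sets were higher under the minus lens (without minus lens replicate 1 the median was 0.05, without replicate 2 it was 0.01 and without replicate 3 it was 0.18). The catalytic beta subunit ATP5B stood at 9.76, 10.10 and 9.70 in the controls, 9.99, 9.82 and 9.81 under the plus lens and 10.04, 10.03 and 9.32 under the minus lens. Minus lens replicate 3 was the lowest of the 9 arrays, and the difference from the controls was -0.06 (SE 0.20). The gamma subunit ATP5C1, the rotating stalk, differed by 0.05 and 0.09 at its 2 probe sets, and the epsilon subunit ATP5E by 0.01. ATP5G1 and ATP5G3 both encode the proton-carrying c subunit: ATP5G1 differed by 0.20 and ATP5G3 by 0.01. The stator subunits ATP5PB and ATP5H differed by 0.24 and 0.16, and ATP5O, which joins the stator to the catalytic head, by -0.08, 0.12 and 0.03 at its 3 probe sets. ATP5J2, the f subunit, had at its dimmer tested probe set (4.19 to 4.25 in the controls, 4.26 to 4.50 under the minus lens) the only difference in complex V whose groups did not overlap, 0.14. That probe set lay near the filter. The other tested probe set of ATP5J2 had the highest difference of the complex, 0.34 (SE 0.50). Its groups overlapped, with controls at 4.75 to 6.35 and minus lens arrays at 5.61 to 6.31.

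**Figure D3:**
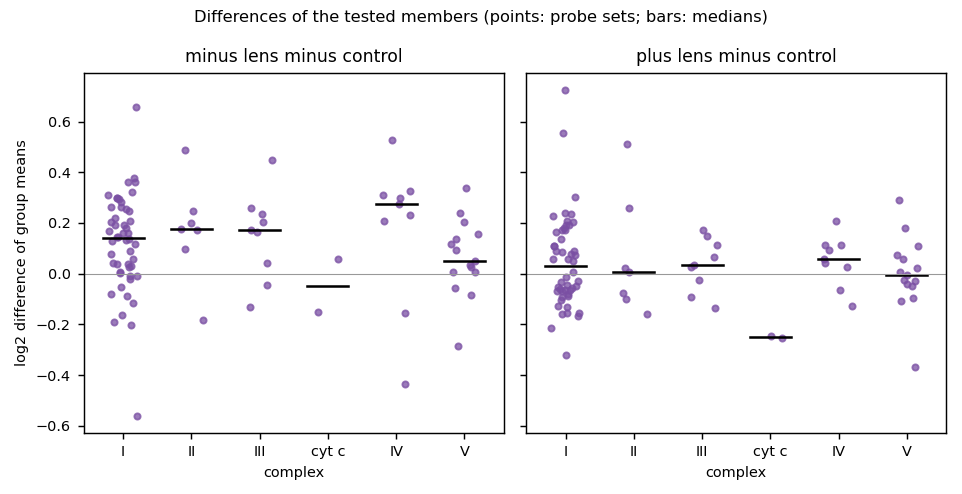
Log2 difference of group means for each of the 92 tested members (points) by complex, with medians as bars, for the minus lens (left) and the plus lens (right) against the controls. Minus lens medians ran from 0.05 in complex V to 0.28 in complex IV over the 5 complexes, and plus lens medians from -0.01 to 0.06.

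On chromosome Z lie 5 members, and 4 of them were at their lowest on minus lens replicate 1, the array with W signal. NDUFS4, an accessory subunit of complex I, stood at 8.58 there and at 9.12 to 9.54 on the other 8 arrays. ATP5F1AZ, the Z copy of the alpha subunit of ATP synthase, stood at 9.02 against 9.52 to 10.05. COX7C of complex IV stood at 8.69 against 9.10 to 9.60, and ATP5I, the e subunit of ATP synthase and the brightest member, at 11.83 against 12.09 to 12.56. The assembly factor NDUFAF2 was the exception, at 6.83 within 6.58 to 7.43. The minus lens differences from the controls moved from -0.19 to 0.06 for NDUFS4, from -0.29 to -0.03 for ATP5F1AZ, from -0.16 to 0.10 for COX7C, from 0.03 to 0.25 for ATP5I and from 0.26 to 0.41 for NDUFAF2 when that array was left out. Over all 471 tested probe sets on Z the median moved from -0.19 to -0.03. With the Z members left out, the 87 other members had a median of 0.16 with 70 higher, or 0.06 without minus lens replicate 1. The sex of the birds was not tested against any other record.

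**Figure D4:**
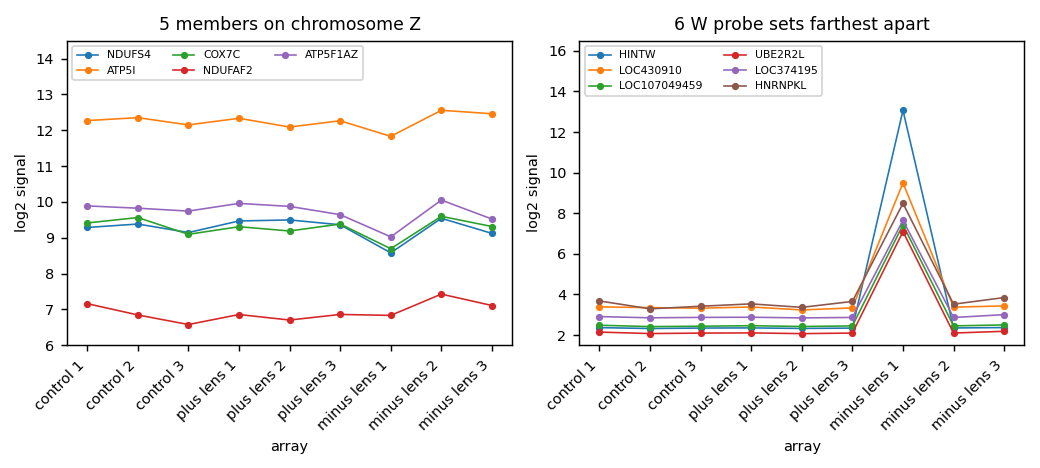
Log2 signal on each of the 9 arrays of the 5 members on chromosome Z (left) and of the 6 probe sets on chromosome W farthest apart between arrays (right). NDUFS4, COX7C, ATP5F1AZ and ATP5I dipped on minus lens replicate 1, the array on which HINTW stood at 13.07.

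Plus lens wear was compared with no lens to ask the same of suppressed growth. Here too 0 of 92 members had an adjusted p under 0.05 in limma, where 0.00771% of all tested probe sets did, and the smallest adjusted p was 1.0. The members were close to evenly split, with 50 higher and 42 lower (54.3% higher, against 49.4% of all tested probe sets), and 75 differed by less than 0.2 in size. The median difference was 0.02, against 0.00 over all tested probe sets, and ran from -0.05 without control replicate 3 to 0.08 without control replicate 2. The groups did not overlap for 4 higher members (4.35%, against 3.15%) and 2 lower members (2.17%, against 3.52%). By complex the medians were 0.03 for complex I, 0.00 for complex II, 0.03 for complex III, 0.06 for complex IV and -0.01 for complex V, and CYCS differed by -0.25 at both probe sets.

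The largest plus lens difference was that of NDUFB4, a membrane arm subunit of complex I. Its brighter probe set stood at 6.06, 5.99 and 6.37 in the controls and 6.53, 7.10 and 6.96 under the plus lens, a difference of 0.73 (SE 0.32, 1.65-fold, adjusted p = 1.0 in limma), and at 6.70, 6.94 and 5.67 under the minus lens. The plus lens arrays all lay above the controls, and the minus lens arrays spread across both groups. It was the 1 member at an unadjusted p under 0.05 (1.09% of members, against 0.863% of all tested probe sets in the higher direction), and 0 members lay there in the lower direction, against 1.09% (in either direction, 1.95% of all tested probe sets had such a p). The other NDUFB4 probe set differed by 0.23, with the plus lens arrays at 5.73 to 6.04 and the controls at 5.54 to 5.73. NDUFAF7 stood at 5.45, 6.07 and 6.30 in the controls and 6.20, 6.90 and 6.38 under the plus lens, a difference of 0.55 with overlapping groups. NDUFS1 differed by 0.30 at its brighter tested probe set and by 0.08 at the other, and NDUFA10 and SDHA by 0.24 and 0.26. The groups of NDUFS1, NDUFA10 and SDHA overlapped. NDUFA8, at 9.28, 9.34 and 9.26 against controls of 9.36 to 9.67, differed by -0.22.

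The 2 lenses were also compared with each other, a comparison that shares its arrays with those above. Of the 92 members 0 had an adjusted p under 0.05 in limma (smallest 0.659), where 0.0154% of all tested probe sets did. The minus lens mean was higher for 60 members and lower for 32 (65.2% higher, against 45.2% of all tested probe sets), with a median of 0.10 against -0.03. The minus lens arrays lay wholly above the plus lens arrays for 11 members (12.0%, against 4.53%) and wholly below them for 1 (1.09%, against 5.15%). At an unadjusted p under 0.05 there were 4 higher members (4.35%, against 3.02%) and 1 lower member (1.09%, against 4.05%), together 5.43% against 7.08%. NDUFA12 differed by 0.42 (SE 0.10, adjusted p = 0.664), the brightest NDUFB3 probe set by 0.41 (SE 0.11, adjusted p = 0.664), UQCR11 by 0.39 and NDUFA4 by 0.49, all with groups that did not overlap. The dimmest NDUFB3 probe set differed by -0.70. The count leaned on single arrays: without minus lens replicate 1 the median was -0.01 with 45 of 92 higher, and without replicate 3 it was 0.23 with 73 higher. In the latter setting 35 members (38.0%) lay wholly above the plus lens arrays, where 11.1% of all tested probe sets did, and 2 wholly below them, where 9.36% did. At an unadjusted p under 0.05 there were then 19 higher members (20.7%, against 4.19%), with 0 calls after adjustment (smallest adjusted p = 0.512 in limma). Without replicate 1 instead, 13 members (14.1%) lay wholly above the plus lens arrays, where 10% of all tested probe sets did. Wholly below them lay 4 (4.35%, against 13.6%). At an unadjusted p under 0.05 in limma there were then 3 higher members, 3.26% against 3.37%. An F test over the 3 groups gave 0 adjusted calls, where 0.0154% of all tested probe sets passed, and 6 members (6.52%, against 5.29%) at an unadjusted p under 0.05.

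The members varied together from array to array within groups. After each group's mean was removed, the mean correlation between pairs of members over the 9 arrays was 0.24, against 0.03 over pairs of all tested probe sets, as a description of arrays that share tissue and amplification. It was 0.39 in complex III, 0.30 in complex V, 0.22 in complex I, 0.07 in complex IV and 0.06 in complex II. The ribosomal protein genes, which belong to another process, had 0.37. The 5 members on Z had 0.84, with their shared low value on minus lens replicate 1. Against the mean of the other members, 37 of the 92 had a correlation over 0.7, led by ATP5G3 (0.98), ATP5B (0.96), UQCR11 (0.94) and NDUFV1 (0.94), and 13 had one under 0. The lowest was NDUFS3 (-0.86), followed by the dimmer probe sets of NDUFA11 (-0.81) and NDUFA9 (-0.73), and these 3 were highest on minus lens replicate 3. Where a gene had several tested probe sets, the mean of the other members included them. A count of such correlations over all tested probe sets is not given here, so the 37 have no share to be set against.

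**Figure D5:**
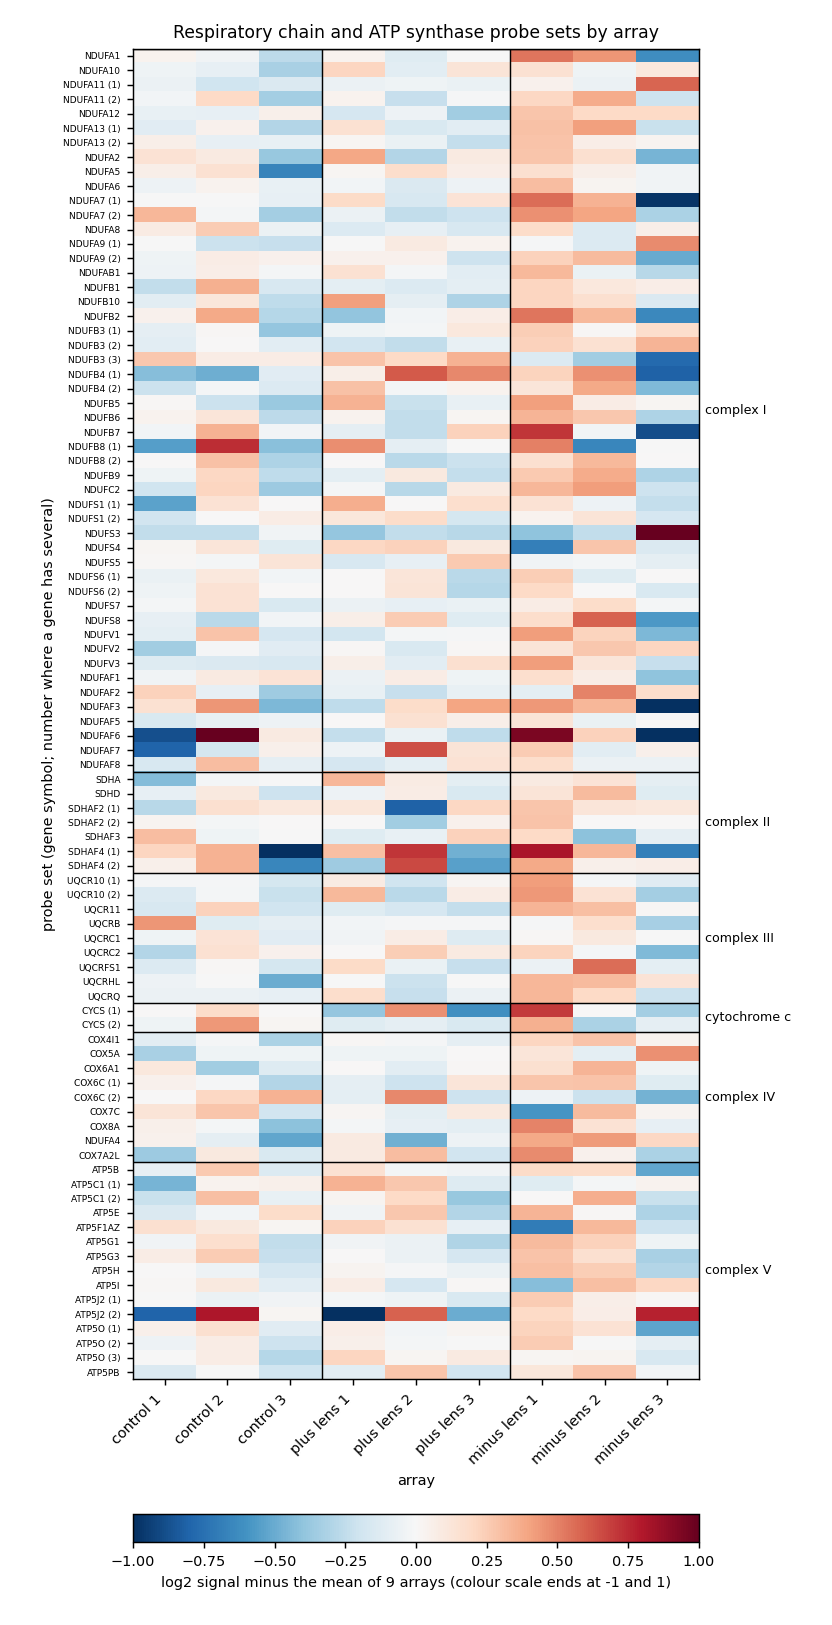
Log2 signal of each of the 92 tested members minus its mean over the 9 arrays, by complex and array (red higher, blue lower, colours end at -1 and 1). Columns of mostly red cells on minus lens replicates 1 and 2 and mostly blue cells on control replicate 3 run through the complexes. Minus lens replicate 3 is mostly blue in complexes I, III and V and mixed in complexes II and IV. NDUFS3 and COX5A are among the members that are red there.

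Other mitochondrial genes were described through lists of assembly factors, metabolic enzymes, carriers, biogenesis and antioxidant genes. No gene of the 5 mitochondrial lists with tested genes passed in limma under either lens. Of 28 tested assembly factors outside the rule, 16 were higher under the minus lens than in the controls, with a median of 0.04 (-0.06 without minus lens replicate 1 and 0.10 without replicate 3). Among them COX15, which makes haem for complex IV, stood at 3.89, 4.15 and 3.57 in the controls and 3.88, 3.67 and 3.87 under the plus lens. Under the minus lens it stood at 4.27, 4.64 and 4.23, a difference of 0.51 from the controls (SE 0.17, adjusted p = 0.683 in limma). Apart from control replicate 2, only the minus lens arrays reached log2 4. COX15 thus passed the filter through the group where it was high, and its difference is not independent of the filter. ATPAF2, which helps to assemble the head of ATP synthase, stood at 5.55 to 5.58 in the controls, 5.13 to 5.50 under the plus lens and 5.82 to 5.89 under the minus lens, so that its 3 groups did not overlap (0.27 for the minus lens and -0.29 for the plus lens). TMEM126A went the other way under the minus lens. It stood at 4.32 to 5.28 in the controls, 3.81 to 4.29 under the plus lens and 4.13 to 4.29 under the minus lens. Both lens groups lay below the controls, with differences of -0.49 for the minus lens and -0.61 for the plus lens. Of 14 genes of the citric acid cycle and pyruvate dehydrogenase 5 were higher (median -0.11), but the median turned to 0.09 without minus lens replicate 3. Of 13 carriers and energy transfer genes 7 were higher (median 0.01, or -0.05 and 0.11 without replicate 1 and 3), of 14 genes of mitochondrial biogenesis 7 (median 0.04, or 0.02 and 0.11) and of 8 antioxidant enzymes 6 (median 0.06, or 0.07 and 0.12). Under the plus lens the numbers higher were 18 of 28, 4 of 14, 7 of 13, 5 of 14 and 5 of 8 in the same order.

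Lists of other processes and cell types were set beside the members, and 0 of their genes passed in limma under the minus lens. The 59 cytosolic ribosomal protein genes had a median of 0.34, with 54 higher (0.25 without minus lens replicate 1 and 0.44 without replicate 3), and their array means against the controls were 0.44, 0.38 and 0.11 for minus lens replicates 1 to 3. Of the 59, 29 had an unadjusted p under 0.05 in limma in the higher direction, where 2.93% of all tested probe sets and 6 of the 92 members did. Of 14 bipolar cell markers 9 were higher, with a median of 0.24 (0.21 and 0.23 without replicate 1 and 3). In the higher direction, 7 of them had an unadjusted p under 0.05 in limma, where 2.93% of all tested probe sets did. GNG13, a G protein subunit of bipolar cells, stood at 6.45, 6.38 and 6.09 in the controls, 6.83, 6.74 and 6.68 under the plus lens and 7.76, 7.42 and 7.90 under the minus lens. Of these 7 markers, GNG13, VSX1, OTX2 and SCGN were highest on minus lens replicate 3. GNB3, GRIK1 and CA10 were highest on minus lens replicate 1, as was the mean of the members. The summed linear signal of the bipolar markers was 24300, 21200 and 23400 on minus lens replicates 1 to 3. The sums were 20100 to 21400 on the controls and 19300 to 23200 on the plus lens arrays. GRIA2, the brightest of these markers (13.83 to 14.15 over the 9 arrays), weighed most in the sums. It differed by -0.04 under the minus lens, so the sums say little about GNG13 and the other dimmer markers. Of 20 tested amacrine markers 5 were higher and 15 lower (median -0.15, or -0.06 without minus lens replicate 3), and their summed signal was 59100 to 68400 on the minus lens arrays against 67300 to 73600 on the controls and 65100 to 72200 on the plus lens arrays. The 13 tested Müller glia markers had a median of -0.11 under the minus lens, which turned to 0.09 without replicate 1, and one of -0.24 under the plus lens, with 12 of 13 lower. Their sums were 19300 to 31900 under the minus lens, 18000 to 28400 under the plus lens and 23400 to 32800 in the controls. None of 8 red blood cell markers with a probe set reached the filter. Among the other markers, the minus lens median of 4 photoreceptor genes was 0.23 (0.21 and 0.29 without replicate 1 and 3). That of 5 horizontal cell genes was -0.11 (-0.09 and -0.09), and that of 5 pigment epithelium genes was 0.12 (0.18 and 0.19). The median of 11 ganglion cell genes, -0.04, turned to 0.08 and 0.03 without replicate 1 and 3, that of 4 microglial genes, 0.07, was -0.08 and 0.17, and that of 4 endothelial genes, 0.33, was 0.44 and 0.17. The marker lists share genes, so these medians are not all separate readings. The horizontal cell median was the value of PROX1, also an amacrine marker, and the pigment epithelium median that of RLBP1, also a Müller glia marker. The ganglion cell median was that of ISL1, also a bipolar and horizontal cell marker. GNB3 was on both the photoreceptor and the bipolar list. In captured tissue, fewer cells of a type and less RNA per cell cannot be told apart, and the part of these markers in the values of the respiratory genes was not tested.

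The position of the minus lens arrays was also read by the members' signal, as a description with no test between ranges. Relative to the control mean, the median member stood at 0.22, 0.33, 0.29 and 0.30 on minus lens replicate 1 for members under log2 6, from 6 to 8, from 8 to 10 and at 10 or above (18, 25, 34 and 15 members). On minus lens replicate 2 the same medians were 0.08, 0.19, 0.25 and 0.27. On minus lens replicate 3 they were 0.01, -0.13, -0.10 and -0.03, and those of all tested probe sets were -0.03, -0.11, -0.14 and -0.13. The difference between the 3' and 5' control probe sets of GAPDH, a measure of how complete the amplified RNA was, was 4.39, 3.76 and 4.32 for minus lens replicates 1 to 3 and 3.95 to 4.28 in the controls. For EF1A it was 6.78 on minus lens replicate 3 and 5.43 to 6.19 on the other 8 arrays, and for actin that array was the lowest, at 7.39 against 7.45 to 7.99. Their part in the results was not tested.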

How the data were processed

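RNA from the captured layer was measured on 9 arrays. The authors deposited linear intensities, 1 for each probe set on each array (the scale was read from the values), and the submitters' processing notes name GCRMA, which corrects background, normalises arrays and summarises probes; its version is not given in the sources used here. Log2 was taken with no pseudocount. Of 38535 probe sets, 96 controls and 746 others of non-chicken sequence were left out, and 12975 of the 37693 chicken probe sets (34.4%) at log2 4 or above on at least 3 of 9 arrays were tested. Symbols came from the platform annotation and the RefSeq gene table of GRCg7b. No 2 arrays held identical values.

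Group means were compared with limma's lmFit and eBayes (limma 3.58.1, R 4.3.3, trend on intensity) in 1 fit of the 9 arrays, with 6 residual and 2.64 prior degrees of freedom, two-sided, with Benjamini-Hochberg adjustment over all tested probe sets and a threshold of 0.05. The code was tested on simulated data. Arrays have no read depth, so precision depends on how many there are and on how much each probe set varies between them. Differences had a median standard error of 0.19, and those of the members ran from 0.10 to 0.58. The minus lens group was taken from sample titles, because its source label also names the plus lens.

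Named genes were the 6 members of smallest unadjusted p in each direction and comparison, the brightest, the dimmest and the highest F statistic of each complex, genes whose probe sets had opposite signs and lay over 0.5 apart, the Z partner of a W gene, CYCS, and up to 3 genes of each pathway list. Others were named after their values were seen. The members and lists were chosen with earlier results of these data known. A planned split by protein length was not run, and no sequences were used here.

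Alternatives were other filters, quantile normalisation, median centring, log2(intensity + 16), no trend, array weights, only the 6 arrays compared, a replicate block, 1 probe set per gene, and leaving out each array. Leaving out the Z members, the assembly factors or the shared probe sets was added after seeing the data.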

Additional observations from a re-analysis of the deposited data

Results flagged for a closer look

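HINTW, a gene of chromosome W outside the respiratory chain, stood at 13.07 on minus lens replicate 1. It was singled out because its signal lies outside the comparisons reported, at 2.32 to 2.37 on the 3 controls and 5 other arrays. LOC430910, UBE2R2L and HNRNPKL, also on W, stood at 9.50, 7.10 and 8.49 on that array and no higher than 3.85 on the others.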

How the results depend on the processing

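No member was called in any setting, in any of the 3 comparisons. With no filter on dim probe sets, where more probe sets were tested, 112 of 143 members had a higher mean under the minus lens than in the controls. That was 78.3%, against 66.9% of all probe sets, where with the filter it was 78.3% against 44.1%. The count was 59 to 81 of 92 when 1 array was left out (64.1%, against 45.9% of all tested probe sets, to 88%, against 50.2%). The median difference ran from 0.06 to 0.25 for the minus lens against the controls, from -0.05 to 0.08 for the plus lens and from -0.01 to 0.23 for the minus lens against the plus lens when 1 array was left out. For the minus lens against the controls it was 0.18 with quantile normalisation, median centring or array weights, 0.13 with log2(intensity + 16), 0.16 with a filter at log2 6, 0.16 with 1 probe set per gene and 0.06 with no filter. The median over all probe sets with no filter was 0.01. With array weights, 16 members had an unadjusted p under 0.05, where 8.68% of all tested probe sets did. Without them it was 7 (7.61% of members, against 7.03% of all tested probe sets). When 1 array was left out the count ran from 3 to 19. The 3 were without control replicate 3 (3.26%, against 4.43%), and the 19 were without minus lens replicate 3 (20.7%, against 7.51%). Over all probe sets the number called was 0 to 4, against 1, 1 and 2 in the 3 comparisons. Same-numbered arrays of different groups had correlations of -0.06 to 0.16, which are not the correlations of whole signals given above. The labels give no pairing beyond the replicate number, and these values cannot show whether same-numbered arrays shared a batch. With the replicate block 0 members were called, the median was 0.15 and the calls over all probe sets were 1, 2 and 0. Of 938 values of named probe sets, 925 kept their direction and side of the threshold and 13 changed sign; the cause was not tested. NDUFS6 (brightest probe set, minus lens against control) turned to 0.0156 with quantile normalisation, 0.0124 with median centring and 0.0040 with array weights. With 1 array left out, the lowest and highest values were -0.111 and 0.0641 for NDUFS6, which turned without control replicate 2 or minus lens replicate 3, and -0.247 and 0.0497 for UQCRB, which turned without control replicate 1 or minus lens replicate 3. They were -0.112 and 0.252 for ATP5I, which turned without control replicate 3 or minus lens replicate 2 or 3. They were -0.423 and 0.0603 for NDUFS4 and -0.232 and 0.287 for the dimmer CYCS probe set, which both turned without minus lens replicate 1. For UQCR11 under the plus lens they were -0.212 and 0.000815, the latter without control replicate 2.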

Other observations

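PDK4, the kinase that switches off pyruvate dehydrogenase and so limits the fuel reaching the respiratory chain, stood at 7.43, 6.79 and 7.13 in the controls, 7.19, 7.03 and 7.63 under the plus lens and 7.72, 7.61 and 8.49 under the minus lens. All 3 minus lens arrays were above the controls, by 0.82 (SE 0.28, adjusted p = 0.683 in limma), and minus lens replicate 3 was the highest. AK3, an adenylate kinase of the mitochondrial matrix, stood at 6.80 to 7.01 in the controls, 7.02 to 7.06 under the plus lens and 7.11 to 7.52 under the minus lens. The 3 groups did not overlap, but the highest control (7.013) and the lowest plus lens array (7.015) nearly met. The difference from the controls was 0.39 for the minus lens (SE 0.14, adjusted p = 0.683 in limma) and 0.12 for the plus lens (SE 0.14).

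TFB1M, which modifies the mitochondrial ribosome's RNA, stood at 5.84, 5.81 and 6.21 in the controls and 7.49, 7.76 and 7.56 under the plus lens, a difference of 1.65 (SE 0.54, adjusted p = 1.0 in limma). Under the minus lens it stood at 7.20, 5.91 and 8.56, the widest spread of the 3 groups.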
